A study of Homo sapiens with 6 samples.

Results

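Receptor tyrosine kinases and growth factors were followed in Daoy cells under 2 forms of the transcription factor ZBTB7B. Daoy is a human cell line established from a medulloblastoma, a tumour of the cerebellum. The set holds 58 genes listed by function: 33 receptor tyrosine kinases, without the Eph, insulin and IGF receptors, and 25 ligands. Their Ensembl identifiers were found among 60554 in the count files, and all 58 matched 1 symbol each in GENCODE release 29. A low-count filter passed 54 of them. EREG, KIT, NTRK3 and ALK did not pass and are given as read counts only.

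The libraries labelled ZFmut came from Daoy cells made to overexpress a ZBTB7B that carries the substitution R363L in its zinc fingers. Those labelled WT came from Daoy cells that overexpressed wild-type ZBTB7B, and each group had 3 libraries of total RNA. Both transgenes were carried by lentivirus (MOI, virus particles per cell, of 15) for 72 hr, in cells kept for 4 days in medium with 10% serum, and no library without a transgene was among the samples. Nothing in the labels says that replicates of a group were separate cultures, so the p-values measure the spread between these libraries, which may be technical. ZBTB7B (also ThPOK) is known as a regulator of T-cell lineage choice. The comparison asks how the transcripts of these receptors and ligands differ when the zinc-finger domain is altered.

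A receptor tyrosine kinase spans the cell membrane once. Binding of a growth factor pairs receptors, the paired kinases phosphorylate each other, and adaptor proteins dock on the phosphorylated tails to start the RAS-ERK and PI3K-AKT cascades. In medulloblastoma, the EGF, PDGF and HGF receptors in particular have been studied as routes of growth and spread. In serum-fed cultures a receptor can meet ligands from the medium as well as those that the cells make themselves.

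Gene counts per library ran from 22236214 to 102730428. ZBTB7B transcripts, which add the transgene to the cell's own gene, stood at 555, 547 and 627 CPM (counts per normalised library size, scaled to 1000000 reads) in ZFmut libraries, against 899, 863 and 951 CPM in WT libraries. The difference was -0.65 ± 0.06 in log2 with its SE (edgeR adjusted p = 1.39e-06), so the amount of the transcript and the substitution changed together and cannot be told apart in any result that follows. Of 10 markers of cerebellar granule cells and neural progenitors, ATOH1, NEUROD1 and BARHL1 stayed under 1 CPM in every library, while VIM, NES, SOX2, ZIC1, ZIC2 and PAX6 were well detected. Summed over the list they came to 915 to 954 CPM in ZFmut libraries and 857 to 886 CPM in WT libraries. Most of that sum was VIM, at 663 ± 37.7 CPM in ZFmut and 662 ± 3.86 CPM in WT libraries and not called. SOX2 was called higher, 1.79-fold, at 38.7 ± 2.84 CPM in ZFmut and 21.6 ± 2.12 CPM in WT libraries (edgeR adjusted p = 1.76e-06). NES was also called higher, at 159 ± 13.3 CPM in ZFmut and 116 ± 12.9 CPM in WT libraries. Of 6 fibroblast and mesenchymal markers, COL1A1, COL1A2 and THY1 were called higher, and COL3A1 and LUM lower. Their sum of 4260 to 4910 CPM in ZFmut and 2490 to 3350 CPM in WT libraries was mostly COL1A1, at 4474 ± 354 CPM in ZFmut and 2784 ± 424 CPM in WT libraries, while LUM was 2.83-fold lower in ZFmut. Of 6 epithelial markers, KRT8, KRT18 and CLDN4 were called higher, and CDH1, the cadherin of epithelia, was 6.44-fold lower at 0.471 ± 0.0428 CPM in ZFmut and 2.91 ± 0.412 CPM in WT libraries. The epithelial sum of 578 to 703 CPM in ZFmut and 368 to 408 CPM in WT libraries was mostly KRT8, at 461 ± 50.5 CPM in ZFmut and 263 ± 19.0 CPM in WT libraries. The part of these differences in the results on receptors and ligands was not tested. In bulk RNA, fewer cells that express a gene and less RNA of it per cell cannot be told apart.

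The 250 bases before the start site are shown for the 4 receptors that passed edgeR's glmTreat, a test against a minimum change of 1.5-fold. VEGFB and VEGFC, 2 of the 5 ligands that passed it, are shown beside them. Other receptors had fitted differences above 1.5-fold that missed this test. RefSeq windows (GRCh38.p14) were matched by symbol for 50 of the 58 genes, and the first window listed was used for genes with several. Capitals mark matches, on either strand, to GGGCGG (the GC box of SP and KLF factors) or TATAAA (the TATA box). Each is written 5′ to 3′ on the strand of its gene.
AXL, chr19:41218973-41219222, plus strand: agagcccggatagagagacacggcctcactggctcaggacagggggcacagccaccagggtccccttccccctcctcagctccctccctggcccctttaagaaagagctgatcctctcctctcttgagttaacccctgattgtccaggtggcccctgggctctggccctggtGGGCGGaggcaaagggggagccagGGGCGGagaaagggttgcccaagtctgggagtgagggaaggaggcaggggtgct
LTK, chr15:41513828-41514077, minus strand: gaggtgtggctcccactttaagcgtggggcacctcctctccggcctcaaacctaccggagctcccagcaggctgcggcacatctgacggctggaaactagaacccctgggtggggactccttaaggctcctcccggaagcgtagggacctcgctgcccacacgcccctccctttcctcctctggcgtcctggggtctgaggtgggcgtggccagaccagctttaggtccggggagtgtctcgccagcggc
FGFR3, chr4:1793043-1793292, plus strand: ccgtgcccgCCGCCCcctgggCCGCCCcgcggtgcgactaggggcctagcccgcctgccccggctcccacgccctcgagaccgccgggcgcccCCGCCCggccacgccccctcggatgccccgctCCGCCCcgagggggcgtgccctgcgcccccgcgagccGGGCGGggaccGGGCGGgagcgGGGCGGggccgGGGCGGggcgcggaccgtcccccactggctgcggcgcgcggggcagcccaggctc
FLT1, chr13:28495129-28495378, minus strand: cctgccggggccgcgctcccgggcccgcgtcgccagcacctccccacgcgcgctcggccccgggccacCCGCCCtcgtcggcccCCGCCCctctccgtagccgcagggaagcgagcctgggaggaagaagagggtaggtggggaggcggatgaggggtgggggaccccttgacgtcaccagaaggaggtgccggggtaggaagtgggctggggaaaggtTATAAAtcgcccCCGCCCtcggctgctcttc
VEGFB, chr11:64234334-64234583, plus strand: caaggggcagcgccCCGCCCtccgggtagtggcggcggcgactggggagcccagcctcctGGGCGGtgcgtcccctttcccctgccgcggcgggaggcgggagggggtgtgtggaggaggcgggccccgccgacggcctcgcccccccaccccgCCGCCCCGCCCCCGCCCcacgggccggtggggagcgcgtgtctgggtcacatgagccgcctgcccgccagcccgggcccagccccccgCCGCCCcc
VEGFC, chr4:176792923-176793172, minus strand: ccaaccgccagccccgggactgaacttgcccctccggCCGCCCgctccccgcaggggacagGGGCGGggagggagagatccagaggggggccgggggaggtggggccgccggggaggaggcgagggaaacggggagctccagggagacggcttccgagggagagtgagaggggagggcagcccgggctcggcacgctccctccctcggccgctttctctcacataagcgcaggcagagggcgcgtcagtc
The windows of AXL and LTK, higher in ZFmut cells, had 64.4% and 66% GC, and those of FGFR3 and FLT1, which were lower, had 86.8% and 73.2%. These are 2 of the 10 receptors called higher and 2 of the 6 called lower. VEGFB and VEGFC windows held 82.8% and 74% GC. Unlike the others shown, the RefSeq window of VEGFC did not run into the start of a GENCODE transcript of its gene. The start site used for VEGFC is therefore less certain. LTK had no GC box, and FLT1 alone of the 6 had a TATA box.

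A GC box was found in the upstream 250 bases of 36 of the 50 members (72%), against 42.3% of 27305 genes with a RefSeq window. The members are all protein-coding, whereas the 27305 genes were not limited to protein-coding or detected genes. The shares given here therefore compare unlike sets. Among members, it was in 9 of 12 that were higher in ZFmut libraries, 10 of 13 that were lower and 14 of 21 that were not called. TATAAA was in 5 members (10%; 11.1% of all genes), namely AREG, DDR2, FLT1 and KITLG, which were all lower in ZFmut libraries, and EREG, which was not tested. TGANTCA, the AP-1 site, was in CSF1R, EGF, ERBB2, PDGFRA and TYRO3 (10%; 6.6% of all genes). GACCACC, the core of a site bound in vitro by ZBTB7 proteins, was in none of the 50 windows and in 2.42% of all genes. Motifs were searched on both strands and none of the 4 contains another; these counts describe the windows and say nothing on binding.

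Of the 54 tested members, 15 were higher and 13 lower in ZFmut libraries in edgeR's quasi-likelihood F test, at p below 0.05 after Benjamini-Hochberg adjustment over all 18683 tested genes. That is 51.9% of members, where 35.6% of all tested genes passed (17.2% higher, 18.4% lower) and 40.8% of the protein-coding ones. Receptors had 10 higher and 6 lower of 30, and ligands 5 higher and 7 lower of 24. Past a minimum fold change of 1.5, tested with edgeR's glmTreat, 3 members were higher and 6 lower, or 16.7% of members against 3.77% of all tested genes (1.46% higher, 2.32% lower). ERBB4, EGF, FGFR4, FGF18, FLT4, MERTK, TEK and TIE1 were called with a fitted change above 1.5-fold but missed that test. The 3 ZFmut libraries lay wholly above the 3 WT libraries in 18 tested members and wholly below them in 15, where 47.2% of all tested genes had groups that did not overlap. The median log2 difference, ZFmut minus WT throughout, was 0.11 over the tested members and -0.0041 over all tested genes. The median of its size without sign was 0.28 and 0.19.

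**Figure D1:**
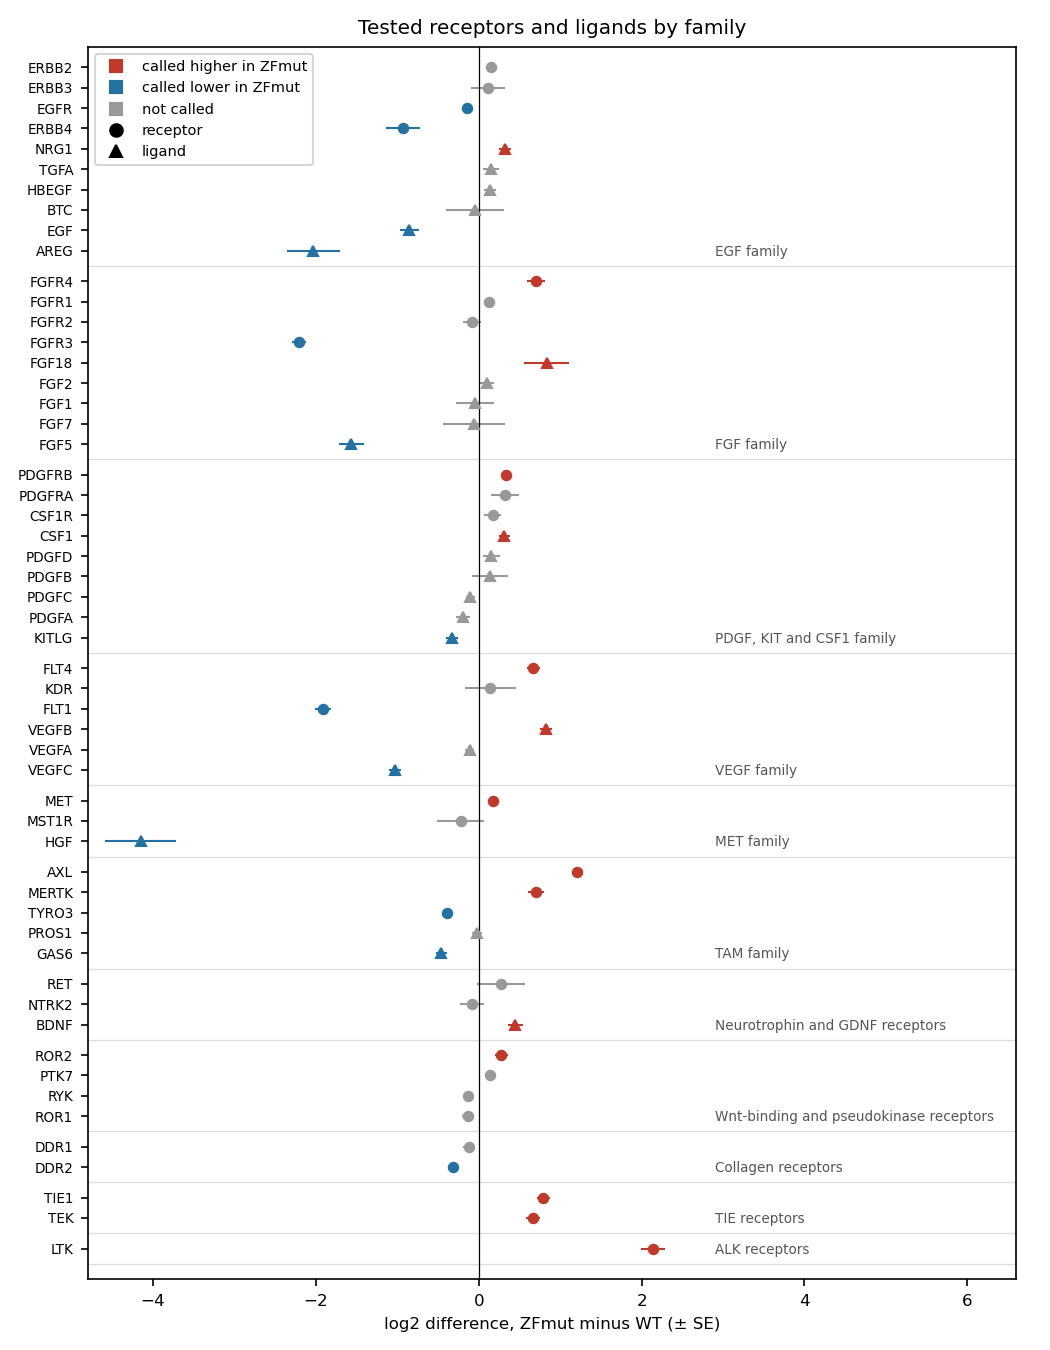
Log2 difference, ZFmut minus WT, with its standard error for the 54 tested members by family; circles are receptors, triangles ligands, and colour gives the edgeR call. Among members past 1.5-fold by glmTreat, LTK, AXL and VEGFB lie farthest to the right and HGF, FGFR3 and AREG farthest to the left. FGF18, which missed that test, lies just to the right of VEGFB.

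Levels between genes were compared as mean CPM per kilobase of exon. AXL, a receptor for GAS6, was the most abundant of the 58 in ZFmut cells at 64.2 CPM per kb and held rank 2 in WT cells at 27.8 CPM per kb. MET, the HGF receptor, held rank 2 in ZFmut cells at 40.6 CPM per kb and rank 1 in WT cells at 36.1 CPM per kb. PTK7, a pseudokinase of planar polarity and Wnt signalling, held rank 3 in both groups, at 29.8 CPM per kb in ZFmut and 26.97 CPM per kb in WT cells, and VEGFB and EGFR shared the next ranks. FGFR3 differed most in this order among the 58, at rank 34 in ZFmut and rank 14 in WT cells. Altogether 37 members reached 1 CPM per kb in at least 1 group, and 12 members stayed under 1 CPM in every library.

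**Figure D2:**
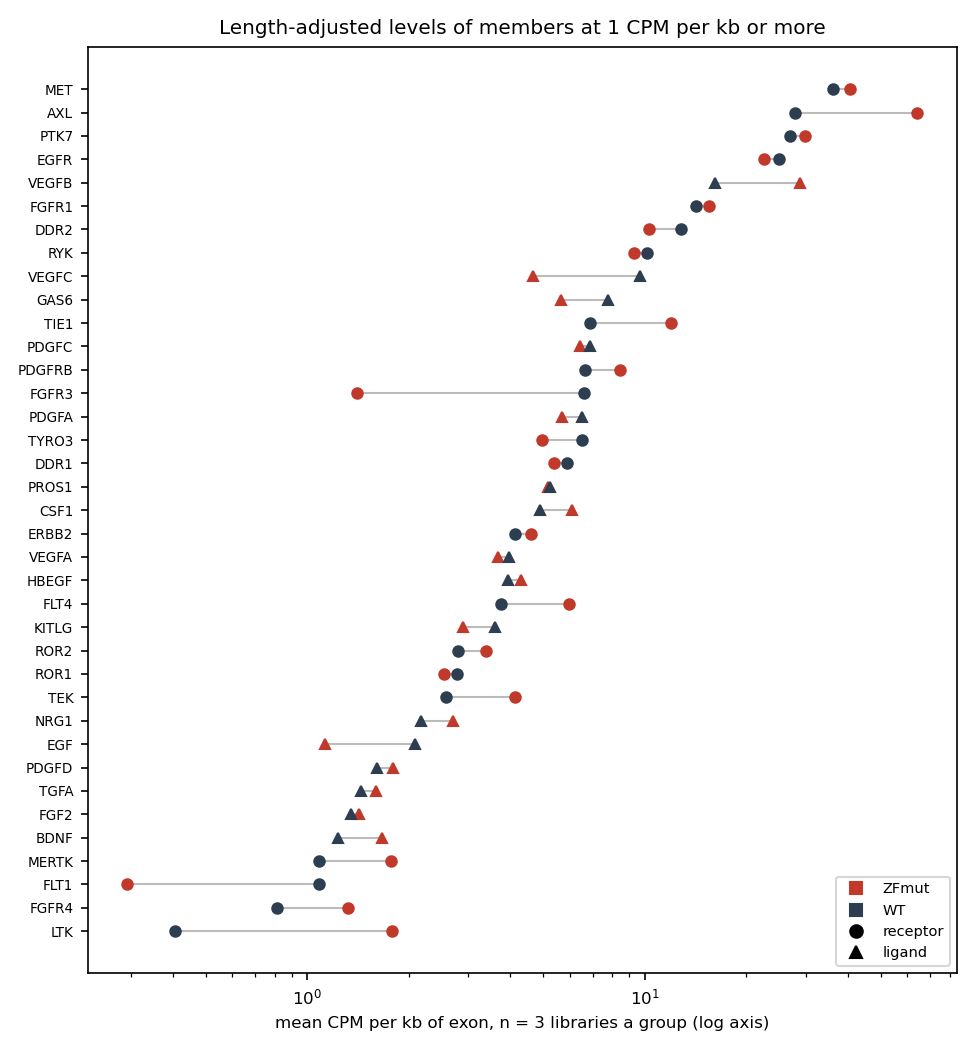
Mean CPM per kb of exon, on a log axis, for the 37 members that reached 1 CPM per kb in ZFmut or WT libraries (3 libraries each), ordered by the WT level. The widest gaps are those of FGFR3 and FLT1, lower in ZFmut, and of LTK and AXL, higher in ZFmut.

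Summed over all 33 receptors, transcripts came to 1996, 2019 and 2040 CPM in ZFmut libraries and 1748, 1803 and 1803 CPM in WT libraries. Most of that gap lay in 1 gene, AXL, at 331 ± 8.72 CPM in ZFmut and 143 ± 6.87 CPM in WT libraries (SD, n = 3 each). The TAM family to which AXL belongs, with its ligands included, summed to 456 ± 11.1 CPM in ZFmut and 295 ± 8.44 CPM in WT libraries. Within that family TYRO3 and the ligand GAS6 were lower in ZFmut libraries. Summed ligands were at 375 ± 10.1 CPM in ZFmut and 386 ± 4.57 CPM in WT libraries, and their ranges overlapped.

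The TAM receptors bind GAS6, and TYRO3 and MERTK also bind protein S. Known for clearance of dying cells and for roles in tumour invasion, these receptors split in direction. AXL (ENSG00000167601.11, chromosome 19, 41219203 to 41261766, plus strand) had 328, 324 and 341 CPM in ZFmut libraries, against 136, 150 and 144 CPM in WT libraries. It was 2.31-fold higher in ZFmut cells (log2 difference 1.21 ± 0.05 SE, edgeR adjusted p = 9.96e-10), with every ZFmut library above every WT library. MERTK, the family member best known from phagocytes, also rose, to 9.15, 7.59 and 8.25 CPM in ZFmut libraries, against 4.97, 5.12 and 5.22 CPM in WT libraries (0.70 ± 0.10, edgeR adjusted p = 9.12e-05). TYRO3, prominent in the nervous system, went the other way at 54.4 ± 1.96 CPM in ZFmut and 71.2 ± 2.22 CPM in WT libraries (SD, n = 3 each; log2 difference -0.39 ± 0.05, edgeR adjusted p = 5.61e-05). The TYRO3 groups did not overlap.

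Among FGF receptors, FGFR3 (ENSG00000068078.17, chromosome 4, 1793293 to 1808872, plus strand) fell most. Its levels were 6.47, 6.72 and 7.22 CPM in ZFmut libraries, against 32.2, 28.98 and 34.5 CPM in WT libraries. FGFR3 is a receptor for FGF9 and FGF18 and a brake on cartilage growth, and its transcripts were 4.61-fold lower in ZFmut cells (log2 difference -2.20 ± 0.09, edgeR adjusted p = 3.15e-10). FGFR4, the receptor of FGF19 in liver, was 1.63-fold higher at 5.80, 6.72 and 6.64 CPM in ZFmut libraries, against 3.73, 3.99 and 4.08 CPM in WT libraries (0.71 ± 0.11, edgeR adjusted p = 0.000161). After correction for GC content and exon length the FGFR4 difference was 0.56 (edgeR adjusted p = 0.000156). FGFR1, by far the most abundant of the family, stood at 205, 220 and 219 CPM in ZFmut and 186, 201 and 203 CPM in WT libraries. That difference of 0.13 ± 0.06 missed the threshold (edgeR adjusted p = 0.0915), and it passed without ZFmut replicate 1 at 0.17 (0.0214) and was 0.081 (0.102) after correction for GC content and exon length. FGFR2 was at 5.24 ± 0.600 CPM in ZFmut and 5.49 ± 0.107 CPM in WT libraries and was not called (edgeR adjusted p = 0.611).

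The VEGF receptors moved in opposite directions. FLT1 (VEGFR1; ENSG00000102755.10, chromosome 13, 28300344 to 28495145, minus strand), a high-affinity receptor that can act as a sink for VEGFA, had 3.88, 3.80 and 3.38 CPM in ZFmut libraries, against 13.6, 13.1 and 14.1 CPM in WT libraries. It was 3.77-fold lower in ZFmut cells (-1.91 ± 0.10, edgeR adjusted p = 2.95e-09). FLT4 (VEGFR3), the receptor of lymphatic growth, was 1.59-fold higher at 47.5, 53.9 and 56.5 CPM in ZFmut libraries, against 29.5, 34.8 and 35.2 CPM in WT libraries (0.67 ± 0.08, edgeR adjusted p = 1.44e-05). After GC and length correction the FLT4 difference was 0.54 (edgeR adjusted p = 9.44e-09). KDR (VEGFR2), the main VEGFA receptor of blood vessels, stayed under 1 CPM in every library.

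Both TIE receptors, which take part in vessel maturation with the angiopoietins, were higher in ZFmut cells. TIE1 had 74.2, 83.9 and 82.1 CPM in ZFmut libraries, against 40.3, 51.6 and 46.2 CPM in WT libraries (0.79 ± 0.08, edgeR adjusted p = 2.47e-06), and missed the test against 1.5-fold (glmTreat adjusted p = 0.0519). TEK (TIE2), which binds the angiopoietins, had 22.4, 18.8 and 18.4 CPM in ZFmut libraries, against 11.9, 12.9 and 12.3 CPM in WT libraries (0.67 ± 0.09, edgeR adjusted p = 3.21e-05). Neither gene's groups overlapped. FLT4, TIE1 and TEK are known from endothelium, so 6 endothelial markers were read beside them. CDH5, the cadherin that defines endothelium, had 2, 0 and 0 reads in ZFmut libraries and 3, 0 and 0 reads in WT libraries. PECAM1 was at 1.37 ± 0.109 CPM in ZFmut and 0.303 ± 0.129 CPM in WT libraries and was called higher. ERG was called lower at 5.80 ± 0.529 CPM in ZFmut and 7.24 ± 0.926 CPM in WT libraries. The summed list ran from 15.2 to 18.2 CPM in ZFmut and from 13.9 to 16.6 CPM in WT libraries, and its part in the receptors' differences was not tested.

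LTK (ENSG00000062524.15, chromosome 15, 41503638 to 41513887, minus strand), a relative of ALK that binds the ALKAL cytokines, was the receptor with the largest increase. Its levels were 5.85, 6.05 and 6.73 CPM in ZFmut libraries, against 1.07, 1.46 and 1.71 CPM in WT libraries, or 4.41-fold higher (2.14 ± 0.15, edgeR adjusted p = 9.20e-08). ALK itself was close to absent, with 1, 1 and 7 reads in ZFmut libraries and 2, 7 and 4 reads in WT libraries.

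EGFR, the receptor of EGF, TGFA, amphiregulin and several others, was abundant and changed little. It had 292, 271 and 286 CPM in ZFmut libraries, against 323, 298 and 317 CPM in WT libraries. The log2 difference of -0.14 ± 0.05 passed barely (edgeR adjusted p = 0.0479), and the call was lost without ZFmut replicate 2 or 3 or WT replicate 1 or 3, at -0.15 to -0.11 (adjusted p 0.0924 to 0.212), and also with DESeq2 at -0.13 (0.0568). ERBB4, a neuregulin receptor, was lower in ZFmut cells at 1.61, 0.751 and 0.982 CPM, against 1.93, 2.08 and 2.06 CPM in WT libraries (-0.93 ± 0.21, edgeR adjusted p = 0.00343). ERBB2, the partner receptor without a ligand of its own, was at 47.4 ± 2.70 CPM in ZFmut and 42.6 ± 2.85 CPM in WT libraries and was not called (edgeR adjusted p = 0.0860). It passed without ZFmut replicate 1, at 0.20 (0.0158), and dropped to 0.041 (0.487) after correction for GC content and exon length. ERBB3, a kinase-impaired neuregulin receptor, was near 1 CPM in both groups and not called.

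MET stood at 304, 271 and 282 CPM in ZFmut libraries, against 265, 239 and 258 CPM in WT libraries. The log2 difference was 0.17 ± 0.06 (edgeR adjusted p = 0.0352). The call ended without ZFmut replicate 1 or 3 or WT replicate 2 or 3, at 0.13 to 0.18 (adjusted p 0.0611 to 0.177), and after GC and length correction the value was larger, at 0.30 (4.79e-06). MST1R, its relative, stayed under 1 CPM.

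PDGFRB, which drives growth of mesenchymal and perivascular cells, was higher at 57.2, 63.1 and 60.6 CPM in ZFmut libraries, against 44.4, 51.9 and 46.4 CPM in WT libraries (0.34 ± 0.06, edgeR adjusted p = 0.000962). Its groups did not overlap. PDGFRA was at 2.03 ± 0.278 CPM in ZFmut and 1.65 ± 0.170 CPM in WT libraries and was not called, and 15.8% of its exonic sequence is shared with another gene on the same strand, which makes its count less certain. After GC and length correction it passed as higher, at 0.46 (0.0363). CSF1R, the macrophage growth factor receptor, was at 4.93 ± 0.158 CPM in ZFmut and 4.36 ± 0.284 CPM in WT libraries and was not called. All 6 macrophage markers, PTPRC and CD68 among them, stayed under 1 CPM in every library. KIT had 3, 2 and 0 reads in ZFmut libraries and 1, 7 and 4 reads in WT libraries.

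DDR2, a collagen receptor of mesenchymal cells, was lower in ZFmut cells at 115, 109 and 107 CPM, against 137, 142 and 133 CPM in WT libraries (-0.32 ± 0.05, edgeR adjusted p = 0.000265; -0.20 after GC and length correction). DDR1, its epithelial relative, was at 49.0 ± 3.37 CPM in ZFmut and 53.5 ± 4.63 CPM in WT libraries and was not called (edgeR adjusted p = 0.198). After correction for GC content and exon length DDR1 passed as lower, at -0.25 (7.01e-05). Of the receptors of Wnt ligands and planar polarity, ROR2 was higher at 18.7, 20.5 and 20.0 CPM in ZFmut libraries, against 14.7, 17.3 and 16.6 CPM in WT libraries (0.28 ± 0.08, edgeR adjusted p = 0.0118). Without ZFmut replicate 3 it missed the threshold at 0.27 (0.0577).

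ROR1, also a WNT5A receptor, was at 17.1 ± 0.578 CPM in ZFmut and 18.6 ± 0.996 CPM in WT libraries and was not called. PTK7 was at 247, 289 and 271 CPM in ZFmut and 229, 256 and 245 CPM in WT libraries (0.14 ± 0.06, edgeR adjusted p = 0.0968). RYK, a Wnt-binding pseudokinase, was at 76.5, 72.7 and 74.5 CPM in ZFmut and 81.9, 82.2 and 80.3 CPM in WT libraries (-0.13 ± 0.05, edgeR adjusted p = 0.0531). Neither passed, but without ZFmut replicate 1 both did, PTK7 at 0.21 (0.00957) and RYK at -0.13 (0.0399). After GC and length correction neither did, with PTK7 at 0.037 (0.520) and RYK, its sign turned, at 0.028 (0.597). NTRK2, the BDNF receptor, was at 2.55 ± 0.192 CPM in ZFmut and 2.71 ± 0.383 CPM in WT libraries, and RET, the receptor of the GDNF family, stayed under 1 CPM. NTRK3 was listed at 0 reads in all 6 libraries, where a count of 0 allows 0.0292 to 0.135 CPM per library (3 reads, counting error only).

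**Figure D3:**
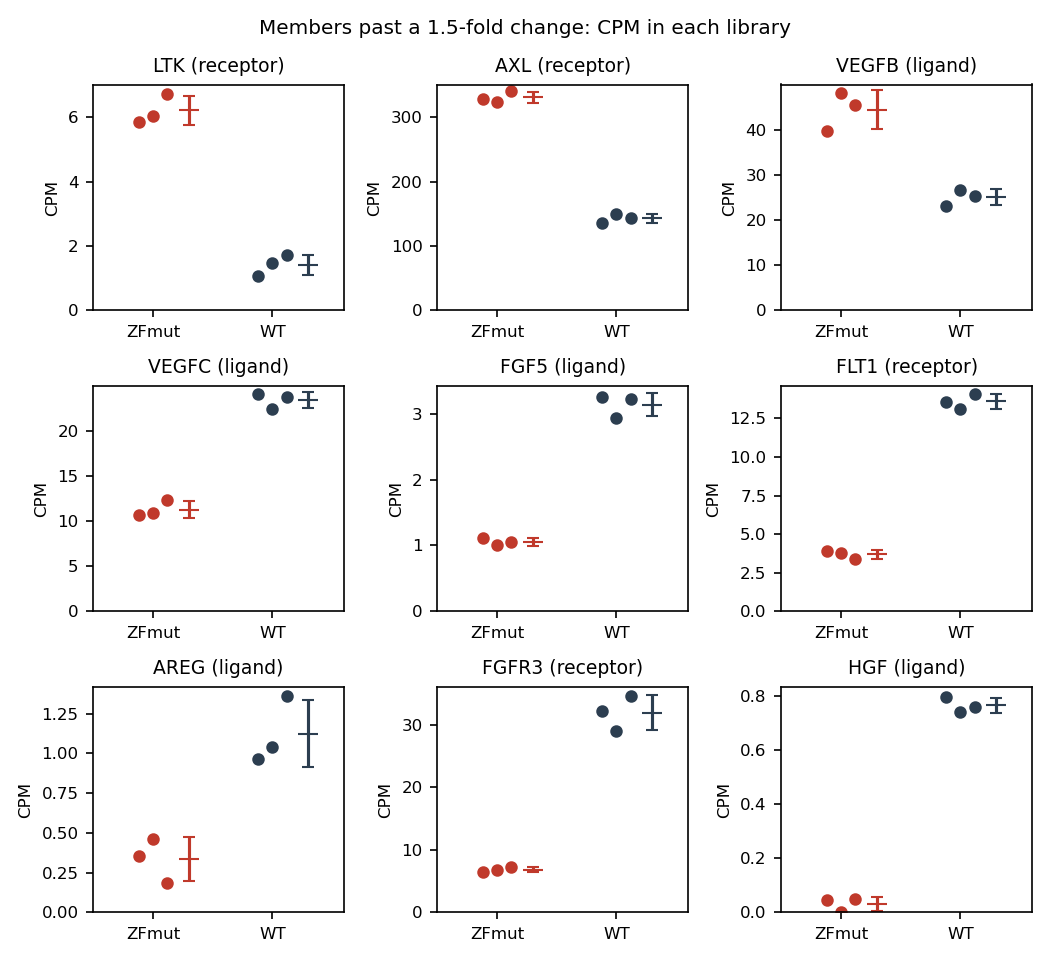
CPM per library (points) with mean and SD (bars) for the 9 members past a 1.5-fold change by glmTreat, with ZFmut left of WT and each axis starting at 0. In all 9 panels the 3 ZFmut points lie on 1 side of the 3 WT points.

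HGF (ENSG00000019991.15, chromosome 7, 81699008 to 81770438, minus strand), the ligand of MET, had the largest fitted difference of the 54 tested members but rested on few reads: 1, 0 and 5 in ZFmut libraries and 23, 42 and 24 in WT libraries. The summed reads gave a ratio 18.7-fold lower in ZFmut cells, with a 95% exact binomial interval of 8.28 to 52.4 that covers counting error only. The fitted difference was called (edgeR adjusted p = 4.90e-06). In WT libraries HGF was at 0.794, 0.739 and 0.760 CPM, so it was scarce there too.

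VEGF ligands split between VEGFB and VEGFC. VEGFC (ENSG00000150630.3, chromosome 4, 176683538 to 176792727, minus strand), the growth factor of lymphatic vessels, had 10.6, 10.9 and 12.3 CPM in ZFmut libraries, against 24.1, 22.4 and 23.7 CPM in WT libraries. It was 2.04-fold lower in ZFmut cells (-1.03 ± 0.08, edgeR adjusted p = 1.79e-07). VEGFB (ENSG00000173511.9, chromosome 11, 64234538 to 64238793, plus strand), a ligand of FLT1, was 1.77-fold higher at 39.7, 48.1 and 45.4 CPM in ZFmut libraries, against 23.1, 26.6 and 25.4 CPM in WT libraries (0.83 ± 0.08, edgeR adjusted p = 1.64e-06). The groups did not overlap for either gene. VEGFA, the main angiogenic ligand, was at 51.6, 51.5 and 55.6 CPM in ZFmut and 55.2, 57.0 and 59.7 CPM in WT libraries and was not called (-0.11 ± 0.06, edgeR adjusted p = 0.147), though it passed after GC and length correction at -0.16 (0.00450).

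Of the EGF family ligands, 2 were lower and 1 higher. EGF was at 7.90, 5.51 and 7.41 CPM in ZFmut libraries, against 13.3, 11.5 and 13.5 CPM in WT libraries (1.81-fold lower, -0.85 ± 0.11, edgeR adjusted p = 4.96e-05). Amphiregulin, AREG, had 8, 11 and 19 reads in ZFmut libraries and 28, 59 and 43 reads in WT libraries, a ratio of summed reads 4.32-fold lower in ZFmut cells with a 95% exact binomial interval of 2.99 to 6.38 (edgeR adjusted p = 0.000222). Both are made as membrane precursors and released by proteases. NRG1, a neuregulin that signals through ERBB3 and ERBB4, was higher at 32.3, 28.6 and 31.2 CPM in ZFmut libraries, against 25.5, 23.3 and 25.2 CPM in WT libraries (0.32 ± 0.07, edgeR adjusted p = 0.00203). TGFA was at 7.92 ± 0.380 CPM in ZFmut and 7.16 ± 0.716 CPM in WT libraries and HBEGF at 12.9 ± 0.830 CPM in ZFmut and 11.9 ± 0.115 CPM in WT libraries, and neither was called, though HBEGF passed as higher after GC and length correction at 0.18 (0.0469). BTC was under 1 CPM, and EREG had 3, 2 and 19 reads in ZFmut libraries and 8, 8 and 7 reads in WT libraries.

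FGF5 (ENSG00000138675.16, chromosome 4, 80266599 to 80336680, plus strand), which ends the growth phase of hair, was 2.96-fold lower at 1.12, 1.00 and 1.05 CPM in ZFmut libraries, against 3.25, 2.94 and 3.23 CPM in WT libraries (-1.56 ± 0.15, edgeR adjusted p = 2.60e-06). FGF18 was higher at 0.848, 1.29 and 1.16 CPM in ZFmut libraries, against 0.414, 0.545 and 0.950 CPM in WT libraries, and its groups overlapped. Its difference of 0.83 ± 0.28 (edgeR adjusted p = 0.0309) did not pass without ZFmut replicate 2 or 3 or WT replicate 1 or 2, at 0.67 to 0.77 (0.0774 to 0.149), nor after reads were thinned to the smallest library total, at 0.56 (0.193). FGF2, a broadly acting FGF, was at 9.61 ± 0.593 CPM in ZFmut and 9.12 ± 0.811 CPM in WT libraries and was not called, and 11.9% of its exonic sequence lies opposite another gene, from which an unstranded library does not separate it. After GC and length correction FGF2 passed as higher, at 0.27 (0.0102). FGF1 and FGF7 stayed under 1 CPM.

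GAS6, the ligand of all TAM receptors, was lower at 31.0, 34.0 and 36.6 CPM in ZFmut libraries, against 45.6, 48.1 and 46.8 CPM in WT libraries (-0.46 ± 0.07, edgeR adjusted p = 9.16e-05). PROS1, the gene of protein S, was at 28.1 ± 1.21 CPM in ZFmut and 28.5 ± 0.941 CPM in WT libraries (-0.02 ± 0.06, edgeR adjusted p = 0.830). After GC and length correction its sign turned and it passed, at 0.13 (0.0467). KITLG, the ligand of KIT, was lower at 19.0, 18.1 and 16.7 CPM in ZFmut libraries, against 23.1, 20.99 and 22.9 CPM in WT libraries (-0.32 ± 0.07, edgeR adjusted p = 0.00345), and that call was lost after the same correction, at -0.14 (0.101).

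CSF1, the macrophage growth factor, was higher at 30.6, 33.7 and 34.7 CPM in ZFmut libraries, against 26.1, 27.6 and 26.0 CPM in WT libraries (0.32 ± 0.07, edgeR adjusted p = 0.00200; 0.21 after GC and length correction). BDNF, a neurotrophin, was higher at 13.9, 12.1 and 12.8 CPM in ZFmut libraries, against 10.3, 8.50 and 9.75 CPM in WT libraries (0.45 ± 0.09, edgeR adjusted p = 0.00157). Neither gene's groups overlapped. None of the 4 PDGF ligands was called. PDGFC was at 35.9 ± 0.717 CPM in ZFmut and 38.4 ± 0.735 CPM in WT libraries, and PDGFA at 23.7 ± 2.26 CPM in ZFmut and 27.1 ± 2.57 CPM in WT libraries. PDGFA passed as lower without WT replicate 1 at -0.24 (edgeR adjusted p = 0.0487) and after GC and length correction at -0.34 (8.15e-05). PDGFD was at 7.66 ± 0.0628 CPM in ZFmut and 6.89 ± 0.922 CPM in WT libraries and passed as higher after the same correction at 0.29 (0.0262), and PDGFB stayed under 1 CPM.

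Ligands were then set beside the receptors that bind them, in 38 pairs listed from general knowledge after the values were known, with several genes in more than 1 pair. The list is not complete: FGF18 was set beside FGFR3 only, and FGF2 and FGF5 beside FGFR1 only. No background share was taken for the counts, so they describe this list only. Both partners were called in 10 pairs. They differed in opposite directions in 7 pairs: VEGFB with FLT1, VEGFC with FLT4, HGF with MET, GAS6 with AXL and with MERTK, NRG1 with ERBB4, and FGF18 with FGFR3. The same direction was found in 3 pairs, GAS6 with TYRO3, and EGF and AREG with EGFR. The EGFR pairs rest on its narrow call, so without ZFmut replicate 2 or 3 or WT replicate 1 or 3 only 1 pair went the same way. Of the opposite pairs, HGF with MET and FGF18 with FGFR3 rest on the calls of MET and FGF18, and 5 remained without ZFmut replicate 3 or WT replicate 2. In 25 pairs at most 1 partner was called, and in 3 pairs a partner was not tested. For VEGFC and FLT4, the ligand was at 11.3 ± 0.896 CPM in ZFmut and 23.4 ± 0.900 CPM in WT libraries, and the receptor at 52.6 ± 4.61 CPM in ZFmut and 33.2 ± 3.19 CPM in WT libraries. For GAS6 and AXL, the ligand was at 33.9 ± 2.80 CPM in ZFmut and 46.8 ± 1.25 CPM in WT libraries, and the receptor at 331 ± 8.72 CPM in ZFmut and 143 ± 6.87 CPM in WT libraries.

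**Figure D4:**
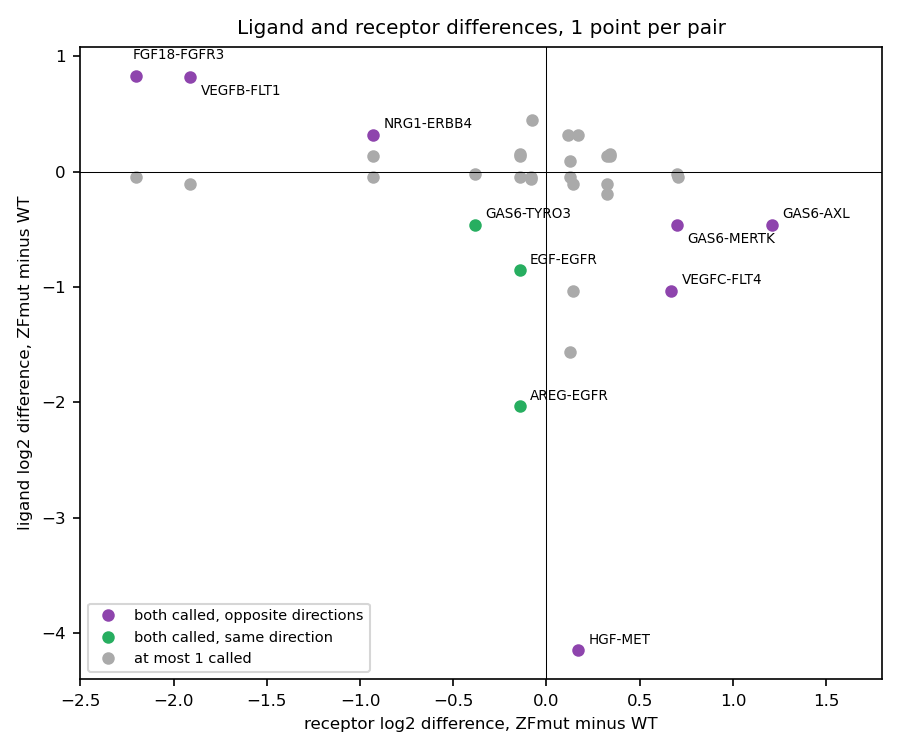
Log2 difference, ZFmut minus WT, of the ligand (vertical axis) against that of its receptor (horizontal axis) for the 35 pairs with both partners tested. The 7 pairs called in opposite directions lie at the upper left and lower right, and the 3 called in the same direction at the lower left.

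Transcript base composition, which the choice of members did not use, went with direction. The median GC content of the annotated transcripts was 57.8% for the 15 members higher in ZFmut libraries, 44.9% for the 13 lower and 49.6% for the 26 not called. Over all tested genes these medians were 56.5%, 45.8% and 48.7%, the same order as among the members. Members at odds with it included FGFR3 and GAS6, which were lower in ZFmut libraries at 62.9% and 62.2% GC, and BDNF and MET, which were higher at 41.7% and 43.9%. After correction for GC content and exon length, 27 of the 28 called members passed again, 8 more passed, and 20 members were higher and 15 lower. That was 64.8% of members, where 42.1% of all tested genes were called under the same correction (4461 higher, 3406 lower). The part of base composition in these differences was not tested further.

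**Figure D5:**
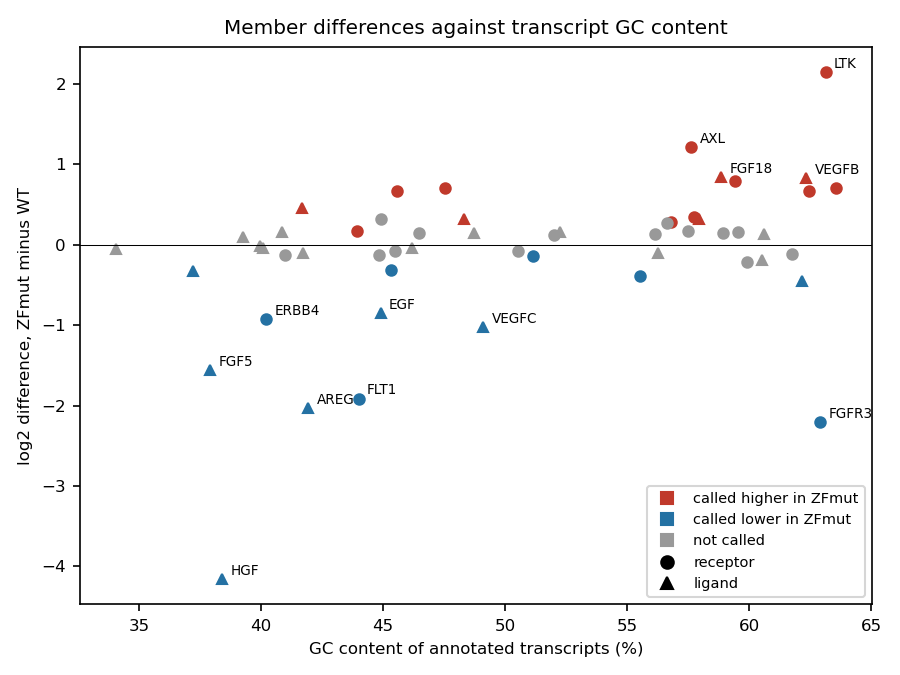
Log2 difference, ZFmut minus WT, against GC content of the annotated transcripts for the 54 tested members; shape gives the role and colour the edgeR call. LTK, VEGFB and FGF18 lie at high GC above 0, HGF, FGF5, AREG, ERBB4 and EGF at lower GC under 0, and FGFR3 at high GC under 0.

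Some members are neighbours on a chromosome. LTK and TYRO3 lie 43.8 kb apart on chromosome 15 and differed in opposite directions, at 2.14 and -0.39. PDGFRB and CSF1R lie 464 bases apart in the same orientation on chromosome 5, and PDGFRB was called higher while CSF1R was not called (0.17 ± 0.11, edgeR adjusted p = 0.252). On chromosome 4, AREG lies 56.4 kb from EREG, and its difference of -2.03 stood beside one of -0.05 for BTC, the next member 290 kb away, which was not called.

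Other genes of the pathway were counted in 4 lists, to be read against the 35.6% of all tested genes and 40.8% of protein-coding ones that were called. Of 23 adaptors and docking proteins, 7 were higher and 4 lower in ZFmut cells, or 47.8%. SHC2, an adaptor that links receptors to GRB2, was 8.96-fold higher at 28.0 ± 2.85 CPM in ZFmut and 3.11 ± 0.302 CPM in WT libraries (edgeR adjusted p = 5.07e-11), and SHC3, a related adaptor of neurons, was 1.65-fold higher at 24.99 ± 0.667 CPM in ZFmut and 15.1 ± 0.886 CPM in WT libraries. IRS2, a docking protein of the insulin receptor, was 1.66-fold lower at 35.3 ± 4.54 CPM in ZFmut and 58.8 ± 6.23 CPM in WT libraries. The medians of the log2 difference were -0.07 for this list and -0.0041 for all tested genes.

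The core of the RAS-ERK and PI3K-AKT cascades had 6 higher and 6 lower of 24 tested genes (50%), with a median log2 difference of 0.0014. RRAS, a small GTPase, was higher at 32.4 ± 0.839 CPM in ZFmut and 23.8 ± 1.66 CPM in WT libraries (0.44 ± 0.07, edgeR adjusted p = 0.000141). KSR1, a scaffold of the cascade, was higher at 221 ± 11.9 CPM in ZFmut and 169 ± 14.9 CPM in WT libraries (0.39 ± 0.07, edgeR adjusted p = 0.000362). The lower count was 3 without ZFmut replicate 3, WT replicate 1 or WT replicate 3.

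Sheddases, coreceptors and genes of receptor turnover had 7 higher and 6 lower of 22 (59.1%), with a median of -0.07. SDC4, a heparan sulfate coreceptor of FGFs, was 1.73-fold lower at 69.3, 69.0 and 68.5 CPM in ZFmut libraries, against 122, 113 and 123 CPM in WT libraries (edgeR adjusted p = 3.97e-08). NRP1, a coreceptor of VEGFs, was higher by 0.47 ± 0.05 at 183 ± 4.86 CPM in ZFmut and 133 ± 0.480 CPM in WT libraries. LRIG1, which promotes turnover of EGF family receptors, was lower at -0.45 ± 0.06, and 12.9% of its exonic sequence lies opposite another gene.

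Of 24 tested growth factors and receptors outside the set, 7 were higher and 4 lower (45.8%), with a median of 0.09. MDK, the growth factor midkine, was 1.81-fold higher at 165, 195 and 185 CPM in ZFmut libraries, against 99.6, 101 and 101 CPM in WT libraries (edgeR adjusted p = 1.09e-07). ROS1, a receptor related to ALK and LTK, was 1.68-fold higher at 12.7 ± 1.75 CPM in ZFmut and 7.50 ± 0.395 CPM in WT libraries. PGF, a further FLT1 ligand, was 1.34-fold higher at 24.6 ± 1.82 CPM in ZFmut and 18.5 ± 0.170 CPM in WT libraries. Without ZFmut replicate 3, 4 genes of this list were higher.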

How the data were processed

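RNA of 6 Daoy libraries, 3 ZFmut and 3 WT, was analysed from the read counts per gene that the authors deposited, whole numbers without normalisation. GRCh38 was the genome and HTSeq, TopHat2 2.0.9, DESeq2 and cutadapt the tools, per the submitters' processing notes; for these files the annotation release and strand setting were not given in the sources used here. Libraries were made with a kit that does not mark strand, so reads of a gene and of one opposite it cannot be told apart. Groups came from the sample titles. In each file 5 summary lines name no gene and were left out; of each file's total, 5.04 to 6.56% lay outside genes, 7.71 to 8.08% was ambiguous and 16.1 to 19.4% was not uniquely aligned, so reads shared by similar genes are outside the counts. GENCODE release 29 held 94.1% of the identifiers and gave symbols, exon lengths, transcript GC content and overlaps.

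ZFmut and WT were compared in R 4.3.3 with edgeR 4.0.16 (TMM, filterByExpr, quasi-likelihood F test, two-sided, no covariates; glmTreat for 1.5-fold), with Benjamini-Hochberg adjustment over all tested genes; unless another tool is named, adjusted p-values, those in brackets included, are from this fit. Within-group pairs of libraries differed by 3.36 to 8.21 in chi-square per degree of freedom, beyond the sampling noise of reads. None was therefore a repeat sequencing of another and all were kept, but this does not show separate cultures. The spread that edgeR names the biological coefficient of variation was 6.27%, and it may be technical here. The fit was tested on simulated counts. Alternatives used DESeq2 1.42.0, limma 3.58.1 (voom), other scaling and filters, loess trends on GC content and exon length (span 0.5), thinning, and each library left out.

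The members, lists and alternatives were chosen with earlier results of these data known. All members are accounted for, with full values for those called at 1.5-fold or more or at 50 CPM or more, and their partners; from each pathway list up to 3 called genes with the smallest p are named, except 1 gene that is not reported here. Other genes named were chosen after their values were seen.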

Additional observations from a re-analysis of the deposited data

How the results depend on the processing

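Over 17 alternatives to the edgeR fit, 23 of the 28 called members kept their direction and their call wherever they were tested. The other 5 were EGFR, FGF18, KITLG, MET and ROR2, and 12 of the 26 members not called passed in at least 1 alternative. Correlations of deviations from the group means were 0.164, 0.077 and 0.0635 for equal replicate numbers and -0.115 to 0.0475 for unequal ones. All were small, but each library correlated best with its own number. The labels do not say whether the numbers pair the libraries. With the number as a replicate block, 18 members were higher and 17 lower, and 34 pathway genes were lower in place of 20. The members gained were VEGFA, PDGFA, DDR1, FGFR1 (edgeR adjusted p = 0.00259), ERBB2 (0.0056), PTK7 (0.000809) and RYK (0.00556). Over all tested genes the block raised the share called from 35.6% to 46.5%. In single lists the block gave 9 lower adaptors, 11 higher and 11 lower genes of the RAS-ERK and PI3K-AKT core, and 10 lower sheddases, coreceptors and turnover genes. With at least 5 CPM in 3 libraries, where 38 members were tested, 4 ligands and 2 other growth factors and receptors were lower, and 4 pairs of ligand and receptor went in opposite directions. After correction for GC content and exon length 9 ligands were higher, 11 pairs went in opposite directions and 6 in the same; with the block added, 6 pairs went in the same direction. PROS1 turned to 0.13 with the correction and to 0.14 with the block added, and the cause was not tested. Median-of-ratios factors, upper-quartile factors, DESeq2 and no low-count filter each left 1 pair in the same direction. With 1 library left out, members called higher ranged from 12 to 17, those called lower from 12 to 14 and those past 1.5-fold from 7 to 12; lower genes of the RAS-ERK and PI3K-AKT core ranged from 3 to 7, other growth factors and receptors called higher from 4 to 7, pairs in the same direction from 1 to 3 and pairs in opposite directions from 5 to 7. Members under 1 CPM rest on few reads, where HGF was the 1 member called.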
